A study of Mus musculus with 4 samples.

Results

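The eukaryotic translation initiation factors bring the ribosome to the start codon of an mRNA. They were taken here as all protein-coding genes of the deposited table with a symbol that starts with Eif in the GENCODE M21 annotation of GRCm38, leaving out the 4 kinases of eIF2 (Eif2ak1 to Eif2ak4), which phosphorylate an initiation factor and are described separately. This rule, which used no measured value, gave 51 genes among the 34866 of the table, in 12 complexes or functional groups, and 48 of them were high enough to be tested.

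The libraries came from λ-MYC Tom+/ki mice, which carry λ-MYC+/TG together with a Cre knock-in allele and with R26tdTom+/ki, and in which a human MYC transgene under immunoglobulin λ regulatory elements drives B cell lymphoma and the Cre switches on Tomato (Tom) for good in the cells where it has acted. Spleen cells of 2 mice with IgM+ Tom+ tumors (tumor #1 and tumor #2) were sorted as B220+ IgM+ Tom+ or B220+ IgM+ Tom-, which gave 4 libraries, 1 of each sort per mouse. Both groups carry all 3 alleles, so neither lacks the transgene or the Cre, and Tom reports past and not present Cre activity. The ages of these mice are not given in the sources used here, and the human transgene was not analysed here.

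In cap-dependent initiation, eIF4F, made of the cap-binding eIF4E, the scaffold eIF4G and the RNA helicase eIF4A, prepares the 5′ end of the mRNA. The small ribosomal subunit joins it with eIF1, eIF1A, eIF3, eIF5 and the ternary complex of eIF2, GTP and initiator tRNA, scans to the start codon, and joins the large subunit with the help of eIF5B. MYC is known to raise the transcription of many genes of ribosome production and translation, several initiation factors among them.

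Values are TPM, the share of transcripts in a library scaled to a fixed total after correction for transcript length, so levels of different genes can be compared within a library. Values of the 4 libraries are given in the order tumor #1 Tom-, tumor #1 Tom+, tumor #2 Tom- and tumor #2 Tom+ throughout. TPM keeps no record of read number, so the depth behind a value is unknown. The B cell markers Cd79a, Cd79b, Ms4a1, Ptprc, Pax5 and Ighm were present in every library, Cd79a for example at 147, 120, 346 and 306 TPM and Ighm at 1334, 1255, 2191 and 3652 TPM. Of 3 natural killer cell markers, Ncr1 and Nkg7 were at 0 in every library and Klrb1c was at 0.0795, 0.0349, 0.308 and 0.592 TPM. The summed level of 6 erythroid markers was 17.6 to 21.5 TPM in tumor #1 and under 1 TPM in tumor #2, that of 6 T cell markers 0.816 to 1.05 and 7.56 to 10.5 TPM, and that of 8 myeloid markers 2.64 to 4.71 and 7.04 to 13.3 TPM. The tumor #2 Tom+ library stood apart by the summed level of 5 plasma cell markers, with 260.3 TPM against 30.2 to 34.7 in the others. Jchain made up 209 TPM of it. Sdc1 was at 1.95, 1.78, 0 and 0.428 TPM and Prdm1 at 0.108, 0.0180, 0.105 and 0.570 TPM. Xbp1 was at 10.6, 11.7, 18.7 and 21.2 TPM and Irf4 at 17.2, 19.5, 14.6 and 29.4 TPM. Mitochondrial genes took 6.61% and 8.67% of the TPM in tumor #1 and 14.4% and 15.6% in tumor #2, and pseudogenes 30.3% to 31.3% and 23.4% to 25.4%.

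Together the 51 genes held 10365, 10384, 9289 and 9270 TPM, that is 1.04%, 1.04%, 0.929% and 0.927% of each library. As a share of nuclear protein-coding TPM, without immunoglobulin, mitochondrial and pseudogene entries, they held 1.87%, 1.88%, 1.72% and 1.84%. The Tom+ and Tom- sums of a mouse lay close together as shares of the library, but with the second denominator the sorts of tumor #2 lay about as far apart as the means of the mice. Because the cells were sequenced in bulk, fewer cells of a type and less RNA per cell cannot be told apart.

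The factors spanned levels from 0.058 TPM to 1283 TPM on average. A mean of at least 100 TPM over the libraries was reached by 25 members and a mean of at least 500 TPM by 6, namely Eif4a1, Eif4g2, Eif5a, Eif1, Eif3d and Eif4e, in falling order, while 6 members lay below 10 TPM. The top 5 held 46.8% of all initiation factor TPM. Among the tested members, 30 stayed within 1.5-fold over all 4 libraries and 8 spanned over 2-fold or had a library at 0. By complex, the 14 eIF3 genes held the largest share, 25.8% to 27.7% of initiation factor TPM, followed by the eIF4A, eIF4B and eIF4H group with 20.7% to 21.9% and the 3 eIF4G genes with 12.5% to 14.0%. The eIF5A pair held 7.68% to 9.77% and the eIF1 and eIF1A group 8.20% to 9.68%, with the latter ahead in both Tom+ libraries.

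**Figure D1:**
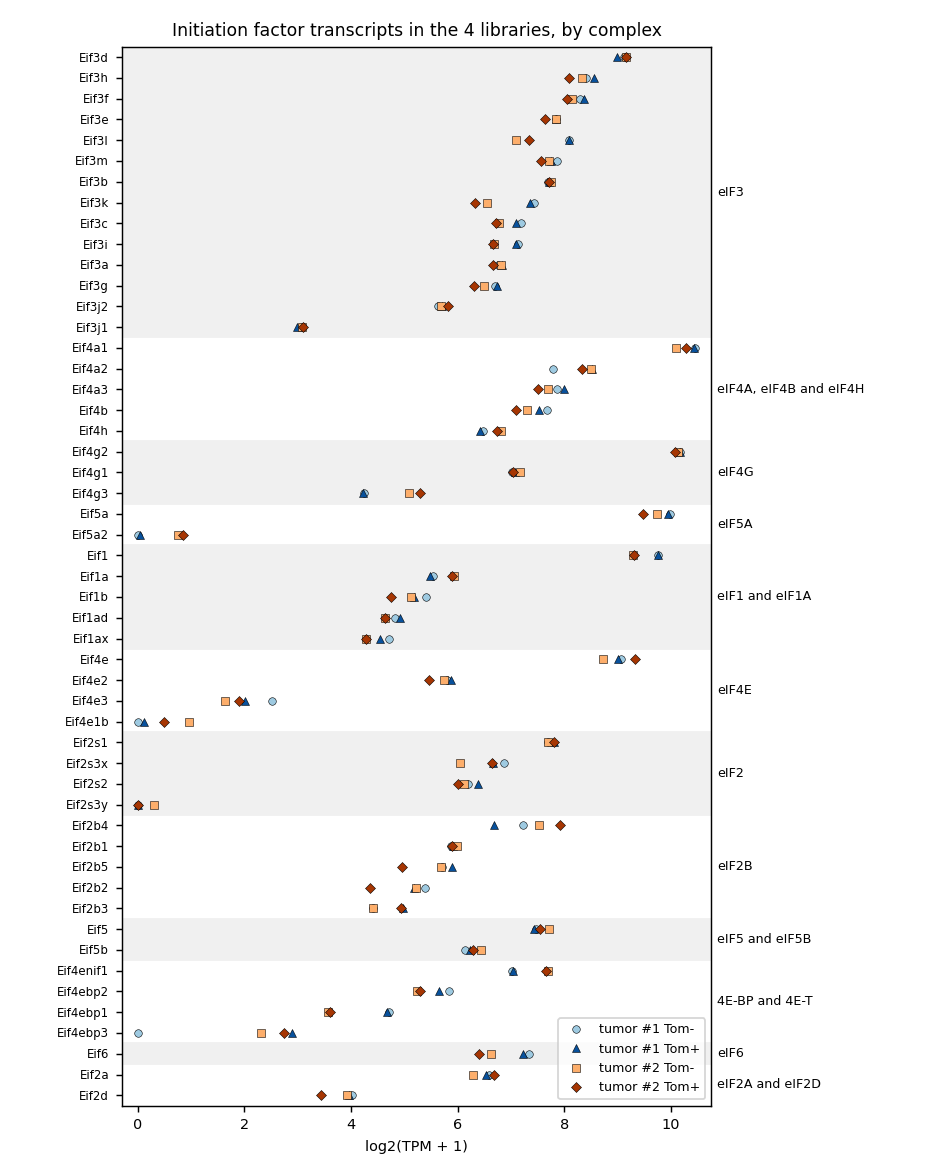
Level of each of the 51 initiation factor genes as log2(TPM + 1) on the horizontal axis, grouped by complex and ordered by mean TPM within it, with 1 symbol per library and no error bars because each sort was sequenced once per mouse. The 4 symbols of most genes lie close together, while Eif3k, Eif3l, Eif6, Eif4ebp1, Eif4g3 and Eif4enif1 split by mouse and not by Tom.

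The helicase group was led by Eif4a1 (ENSMUSG00000059796, GRCm38 chromosome 11, 69666936 to 69672423, minus strand), the main eIF4A of proliferating cells and the initiation factor transcript with the highest mean TPM, although Eif4g2 lay above it in tumor #2 Tom- cells. It was measured at 1407, 1384, 1098 and 1245 TPM. Its paralog Eif4a2, also an eIF4F helicase, had 220, 365, 360 and 322 TPM, and Eif4a3, the helicase of the exon junction complex, had 233, 253, 206 and 180 TPM. The ratio of Eif4a1 to Eif4a2 was therefore 6.40 in tumor #1 Tom- cells and 3.05 to 3.87 in the other 3 libraries. Eif4b and Eif4h encode cofactors that stimulate eIF4A. Eif4b had 203, 184, 156 and 136 TPM and Eif4h 87.7, 84.3, 112 and 106 TPM, so that both tumor #2 libraries lay below tumor #1 for the first and above it for the second, although Eif4h lost that direction with trimmed-mean scaling.

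The Eif4a1 level rests on reads that also match a pseudogene. Of the 60-base windows of its transcripts, 60 bases being the read length, 64.1% occur in pseudogenes, mainly in Eif4a-ps4 (chromosome 1, 60703932 to 60705149, plus strand), a processed copy annotated as not coding for protein. That entry was listed at 225, 233, 189 and 155 TPM. It equals the Eif4a1 coding sequence at 1217 of 1218 aligned bases (99.9%), whereas the Eif4a2 coding sequence equals it at 78.1% of 1221 bases. The stretch below, from the coding sequences in GENCODE M21 transcripts, is shown because it holds the only aligned base that separates gene and copy, and capitals mark bases that differ from Eif4a1.
Eif4a1, bases 474 to 593: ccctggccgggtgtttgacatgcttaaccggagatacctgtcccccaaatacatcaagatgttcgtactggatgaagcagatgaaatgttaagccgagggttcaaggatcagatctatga
Eif4a-ps4, bases 474 to 593: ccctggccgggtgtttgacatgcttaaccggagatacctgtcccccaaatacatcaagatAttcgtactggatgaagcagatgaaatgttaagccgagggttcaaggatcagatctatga
Eif4a2, bases 480 to 599: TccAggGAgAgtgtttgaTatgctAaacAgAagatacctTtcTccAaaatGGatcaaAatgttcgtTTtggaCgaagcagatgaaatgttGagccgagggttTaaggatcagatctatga
Reads that cover this base can tell the gene from its copy, whereas the 1099 windows shared by both cannot, and Eif4a2 differs from Eif4a1 at 20 of the 120 bases shown. With the copies added, Eif4a1 came to 1631, 1617, 1288 and 1400 TPM, which kept both tumor #2 libraries below tumor #1 on the TPM scale, although the fitted difference between the mice for Eif4a1 turned from -0.26 to 0.048 under quantile normalization.

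Across all members, 19 share no 60-base window of their protein-coding transcripts with another gene of the annotation. Eif3k, Eif3l, Eif4g1, Eif4g3, Eif4enif1 and Eif2b3 are among them. A read that equals such a window has no other exact match among the annotated genes. Reads with a mismatch were not examined. Another 19 share at least 5% of their windows. For 10 members, pseudogenes with at least 5% of the windows were found, 13 in all. Values of such members are uncertain to the extent that Salmon divided reads among copies.

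**Figure D2:**
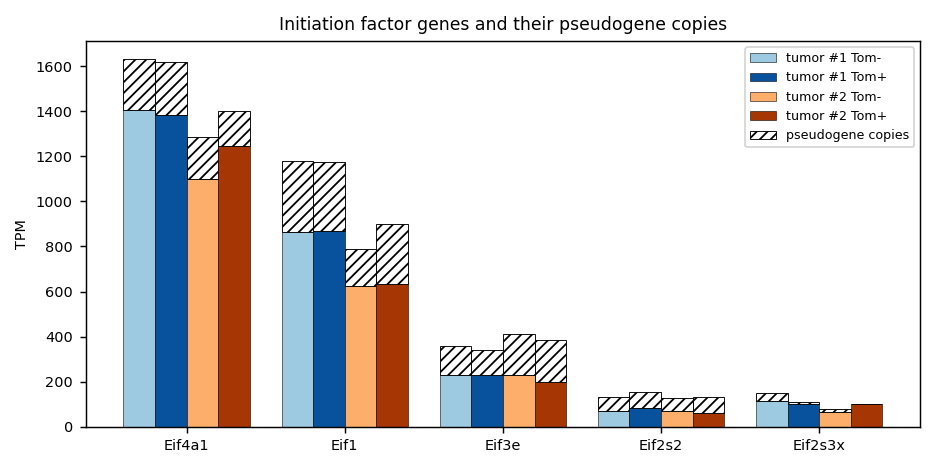
TPM of 5 initiation factor genes (filled bars, 1 per library) with the summed TPM of their pseudogene copies stacked on top (hatched). The copies of Eif4a1 add 155 to 233 TPM to each library, and the copy of Eif2s3x adds 32.1 TPM in tumor #1 Tom- cells and 0 in tumor #2 Tom+ cells.

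The eIF4G scaffolds were dominated by Eif4g2 (also called DAP5), which lacks the eIF4E-binding region of its relatives and serves cap-independent initiation. It had 1149, 1156, 1121 and 1083 TPM, a range of 1.07-fold. Eif4g1, the principal eIF4F scaffold, had 128, 134, 143 and 130 TPM. The level of Eif4g2 was thus 7.87 to 8.96 times that of Eif4g1 in every library. Eif4g3, a second eIF4F scaffold, had 18.02, 17.7, 32.8 and 38.3 TPM, higher in both libraries of tumor #2, so that the ratio of Eif4g1 to Eif4g3 was 7.12 and 7.59 in tumor #1 and 4.34 and 3.40 in tumor #2.

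Eif4e encodes the cap-binding protein, and the 4E-BPs (Eif4ebp1 to Eif4ebp3) hold it away from eIF4G unless they are phosphorylated. Eif4e had 532, 511, 424 and 637 TPM, with tumor #2 holding both the lowest and the highest value. Eif4e2, a homolog linked to translational repression, had 54.5, 57.7, 52.5 and 43.1 TPM, and Eif4e3 4.74, 3.02, 2.12 and 2.74 TPM. Eif4e1b, a germ cell form, was at 0, 0.0826, 0.942 and 0.402 TPM and was too low to be tested.

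Eif4ebp1 was at 25.2, 24.7, 10.8 and 11.3 TPM, and Eif4ebp2 at 56.3, 49.0, 36.6 and 38.4 TPM. Eif4ebp3 was listed at 0 in tumor #1 Tom- cells and at 6.43, 3.98 and 5.71 TPM in the others, with 65.0% of its windows shared with an overlapping gene. Summed, the 3 repressor genes had 81.5, 80.1, 51.4 and 55.4 TPM, and the transcript ratio of Eif4e to them was 6.52 and 6.38 in tumor #1 and 8.25 and 11.5 in tumor #2. These are transcript ratios and carry no information on 4E-BP phosphorylation. Eif4enif1 encodes 4E-T, which carries eIF4E to processing bodies and the nucleus, and had 129, 130, 206 and 202 TPM, without overlap between the mice.

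The eIF3 complex, the scaffold of the pre-initiation complex, is encoded by 14 members, since its loosely bound subunit j has a pair of genes, Eif3j1 and Eif3j2. Its transcripts were not present at equal levels. Eif3d, whose product can itself bind the cap of certain mRNAs, led with 558, 505, 571 and 573 TPM. Eif3a, the largest core subunit, had 107, 113, 111 and 101 TPM, and Eif3b, its partner in the core, had 207, 208, 215 and 210 TPM. The ratio of Eif3b to Eif3a held between 1.84 and 2.09 in the 4 libraries. Eif3j2 had 48.6, 51.3, 50.8 and 55.8 TPM against 7.47, 6.90, 7.48 and 7.56 TPM for Eif3j1, but 90.1% of the Eif3j2 windows are shared with other genes and the division between the pair is uncertain.

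Among the eIF3 subunits, Eif3k and Eif3l, which encode a pair of neighboring subunits at the edge of the complex, differed most between the mice. Eif3k (ENSMUSG00000053565, GRCm38 chromosome 7, 28971372 to 28981864, minus strand) had 172, 163, 92.4 and 79.0 TPM. Eif3l (ENSMUSG00000033047, chromosome 15, 79075179 to 79094405, plus strand) had 272, 272, 136 and 160 TPM. Relative to Eif3d in the same library, Eif3k was at 0.308 and 0.323 in tumor #1 and 0.162 and 0.138 in tumor #2, and Eif3l at 0.487 and 0.539 in tumor #1 and 0.239 and 0.279 in tumor #2. The ratio of Eif3k to Eif3l lay between 0.494 and 0.678. Such ratios within a library do not depend on the scaling of the library. Of the 14 eIF3 genes, 9 had both tumor #2 libraries below both of tumor #1, 3 had them above and 2 overlapped, beside 23.7% of all genes tested below and 44.8% above. The 3 above (Eif3b, Eif3d and Eif3j1) turned to -0.31, -0.24 and -0.24 on the log2 scale with trimmed-mean scaling, and Eif3e, among the 9, turned to 0.19 with its pseudogene copies added. The main copy, Eif3s6-ps2, shares only 11.9% of the Eif3e windows, and how much of its TPM came from Eif3e reads was not tested.

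**Figure D3:**
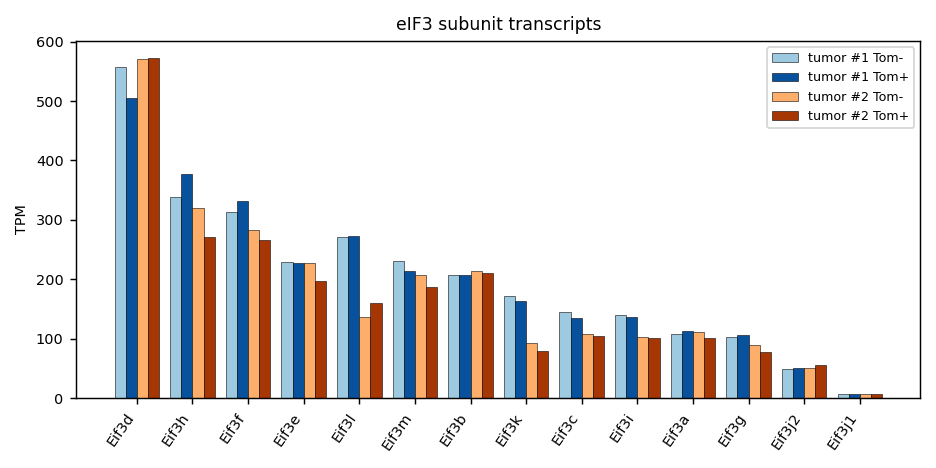
TPM of the 14 eIF3 subunit genes, ordered by mean, with 1 bar per library and no error bars since each sort was sequenced once per mouse. Bars of a subunit are mostly of like height, with Eif3l and Eif3k lower in both libraries of tumor #2 (136 and 160 TPM against 272 in both libraries of tumor #1 for Eif3l).

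The eIF2 heterotrimer carries the initiator tRNA. Its α subunit gene Eif2s1, the target of the stress kinases, had 206, 224, 206 and 223 TPM, and its β subunit gene Eif2s2 72.0, 82.4, 68.8 and 63.3 TPM. The γ subunit, which binds GTP and the tRNA, is encoded on the X chromosome by Eif2s3x and on the Y chromosome by Eif2s3y. Eif2s3x (chromosome X, 94188707 to 94212862, minus strand) had 116, 101, 65.4 and 99.0 TPM, and Eif2s3y was at 0 in 3 libraries and at 0.232 TPM in tumor #2 Tom- cells. A processed pseudogene, Gm2223 (chromosome X, 33505661 to 33507010, plus strand), equals the Eif2s3x coding sequence at all 1350 aligned bases and was listed at 32.1, 9.20, 11.96 and 0 TPM. The Eif2s3y coding sequence equals that of Eif2s3x at 86.3% of 1419 bases. Gm2223 shares 1291 of the 3660 windows of the Eif2s3x transcripts (35.3%), so reads from the other windows can tell the gene from this copy. The stretches below, from GENCODE M21 transcripts, lie within the aligned part, where no base tells Eif2s3x from Gm2223. In them, many bases tell Eif2s3x from the Y-linked gene, and capitals mark bases that differ from Eif2s3x.
Eif2s3x, bases 72 to 191: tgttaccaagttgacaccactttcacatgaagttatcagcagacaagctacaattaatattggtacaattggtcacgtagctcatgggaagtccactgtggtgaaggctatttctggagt
Gm2223, bases 3 to 122: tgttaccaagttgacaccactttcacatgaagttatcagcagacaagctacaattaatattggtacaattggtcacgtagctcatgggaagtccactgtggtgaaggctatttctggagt
Eif2s3y, bases 72 to 191: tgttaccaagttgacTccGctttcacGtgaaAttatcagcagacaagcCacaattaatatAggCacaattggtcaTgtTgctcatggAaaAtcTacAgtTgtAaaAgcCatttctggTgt
With the copy added, Eif2s3x came to 149, 110, 77.4 and 99.0 TPM, and its fitted Tom+ minus Tom- difference turned from 0.19 to -0.04 on the log2 scale. Eif2s2 also has a pseudogene copy, Gm9892, at 61.8, 71.5, 59.0 and 68.9 TPM.

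The guanine nucleotide exchange factor eIF2B, which recharges eIF2 with GTP, is encoded by Eif2b1 to Eif2b5, and its transcripts did not follow a shared pattern over the libraries. Eif2b1 stayed at 57.4, 59.2, 62.5 and 58.8 TPM. Eif2b2 had 41.1, 35.4, 36.5 and 19.5 TPM, and Eif2b5, the catalytic subunit, had 51.3, 58.8, 50.7 and 29.9 TPM, both lowest in tumor #2 Tom+ cells. Eif2b4 was instead highest there, at 241 TPM, with 149, 101 and 184 TPM in the other libraries. Eif2b3, the partner of the catalytic subunit, had 20.4, 30.6, 20.3 and 29.6 TPM, higher in Tom+ cells of both mice. Of the alternative tRNA-binding factors, Eif2a had 95.2, 92.1, 77.4 and 101 TPM and Eif2d 15.2, 14.7, 14.2 and 9.88 TPM.

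Start codon selection depends on eIF1 and eIF1A. Eif1 had 864, 868, 625 and 635 TPM, and its paralog Eif1b 41.4, 35.4, 34.0 and 25.9 TPM, so that Eif1 was 18.4 to 24.5 times higher in each library. The eIF1A genes Eif1a and Eif1ax were at 45.5, 43.9, 60.02 and 58.8 TPM and at 25.4, 22.5, 18.5 and 18.6 TPM. Eif1a was above Eif1ax in every library, but the pair differed between the mice in opposite directions, Eif1a higher and Eif1ax lower in tumor #2. Eif1ad, an eIF1A domain gene, had 27.5, 29.4, 24.0 and 24.1 TPM.

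Eif5, the GTPase activator of eIF2, had 175, 172, 210 and 186 TPM, and Eif5b, which joins the subunits, had 69.4, 74.4, 85.6 and 76.8 TPM. Both were above tumor #1 in each tumor #2 library on the TPM scale and in the fit, and below it with trimmed-mean scaling. Eif5a, a factor of elongation and termination despite its name and the carrier of the amino acid hypusine, had 1013, 981, 859 and 711 TPM. Its paralog Eif5a2 had 0, 0.0284, 0.679 and 0.809 TPM and was too low to be tested. Eif6, which keeps the ribosomal subunits apart and takes part in making the large one, had 161, 149, 97.6 and 83.8 TPM, with both tumor #2 libraries below tumor #1.

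The E-box CACGTG, a sequence that reads the same on both strands and is bound by MYC with MAX, was looked up in RefSeq promoter windows of GRCm38.p6 from 250 bases before to 50 after a transcription start. Windows were found for 39 of the 51 members, and 10 of these (25.6%) held it, against 8.09% of all 27025 genes with windows and 12.4% of the 8011 tested nuclear protein-coding genes among them. Counted by window the shares were 12 of 51 (23.5%), 7.15% and 10.4%. The genes were Eif1b, Eif3a, Eif3f, Eif3k, Eif4a1, Eif4e, Eif4g1, Eif4h, Eif5a and Eif5a2. They were of very unequal level, from 0.379 TPM on average for Eif5a2 to 1283 TPM for Eif4a1, and binding was not measured in these data. A gene with several windows was counted if any of them held the E-box. Eif5a had 6 windows, and the outermost (69921909 to 69922208) held 0. Eif4e had 2 windows, and the one further upstream held 0. The upstream 250 bases of 3 abundant members without an overlapping exon are shown with the E-box in capitals, read along each gene's own strand. The Eif5a stretch shown lies within the annotated gene (69916714 to 69921958).
Eif4a1, chr11:69672424-69672673, minus strand: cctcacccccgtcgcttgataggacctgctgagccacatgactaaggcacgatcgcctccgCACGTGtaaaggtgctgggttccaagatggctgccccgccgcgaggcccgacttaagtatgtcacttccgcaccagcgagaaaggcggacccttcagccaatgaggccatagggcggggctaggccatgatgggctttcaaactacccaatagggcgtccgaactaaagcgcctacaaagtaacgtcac
Eif5a, chr11:69921387-69921636, minus strand: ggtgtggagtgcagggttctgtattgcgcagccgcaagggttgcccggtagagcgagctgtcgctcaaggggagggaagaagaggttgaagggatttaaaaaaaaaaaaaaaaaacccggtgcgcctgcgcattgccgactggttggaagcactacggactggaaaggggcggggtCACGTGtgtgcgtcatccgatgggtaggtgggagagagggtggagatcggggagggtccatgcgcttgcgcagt
Eif3f, chr7:108934165-108934414, plus strand: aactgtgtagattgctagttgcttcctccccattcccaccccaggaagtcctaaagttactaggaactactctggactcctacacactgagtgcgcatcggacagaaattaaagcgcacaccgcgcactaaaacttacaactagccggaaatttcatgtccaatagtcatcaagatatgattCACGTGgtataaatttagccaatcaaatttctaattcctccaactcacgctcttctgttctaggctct
The first base of the E-box lay 189 bases before the start in Eif4a1, 74 in this Eif5a window and 68 in Eif3f, the gene of an eIF3 subunit at 314, 332, 284 and 266 TPM.

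The first comparison asked whether Tom+ tumor cells differ from Tom- tumor cells of the same mouse. No initiation factor passed the test. Limma's moderated test on log2(TPM + 1), with the mouse as a block, called 0 of 48 members at an adjusted p below 0.05, the smallest adjusted p being 0.936, and 0% of all 11339 genes tested. At an unadjusted p below 0.05, 1 member was higher in Tom+ cells and 0 were lower, beside 2.04% and 2.64% of all genes. By direction, 7 members (14.6%) were higher in Tom+ cells of both mice and 14 (29.2%) lower in both, beside 21.6% and 29.5% of all genes, and 27 moved in opposite directions or not at all.

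The differences were small. The median log2 difference over the 48 members was -0.04, beside -0.03 for all genes, and its sign turned under quantile normalization and rescaling to nuclear protein-coding genes. The median absolute difference was 0.083, beside 0.178 for all genes and 0.122 for the 1774 nuclear protein-coding genes with a mean of at least 50 TPM, where the 35 members of that level had 0.075. In both mice, 34 members (70.8%) differed by under 1.2-fold between Tom+ and Tom- cells, beside 33.9% of all genes, and of the members with at least 50 TPM 28 (80%) did so, beside 49.6% of the coding genes at that level. These shares were compared without a test. A difference of 1.2-fold or more in the same direction in both mice was found for 2 members, beside 12.6% of all genes. These were Eif2b3 and Eif4ebp3, the latter listed at 0 in tumor #1 Tom- cells.

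The member with the smallest p was Eif2b3, with 20.4 TPM in Tom- against 30.6 TPM in Tom+ cells of the first mouse and 20.3 against 29.6 TPM in the second. The groups did not overlap, with a log2 difference of 0.54 (SE 0.15, n = 2 mice, limma unadjusted p = 0.0351, adjusted p = 0.936). Next came Eif4ebp3, which was listed at 0 in 1 Tom- library, so that its difference depends on the pseudocount and no fold is given. Eif2b2 followed with -0.54 (SE 0.23), with -0.21 in tumor #1 and -0.87 in tumor #2, then Eif1b with -0.30 (SE 0.15) and Eif4b with -0.17 (SE 0.12), each lower in Tom+ cells of both mice. None of these 4 had an unadjusted p below 0.05.

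Several members differed in 1 mouse only or in opposite directions. Eif4a2 differed by 0.73 in tumor #1 and -0.16 in tumor #2 on the log2 scale, Eif4e by -0.06 and 0.59, Eif2s3x by -0.21 and 0.59, and Eif2b5 by 0.19 and -0.74. The second value of each rests on the Tom+ library of tumor #2, which also had the high plasma cell marker sum. That sum was 260.3 against 34.7 TPM in its Tom- partner, with 209 TPM of it from Jchain alone. Immunoglobulin genes held 9.76% of TPM in this library against 5.35% in its partner. The part of these in the differences was not tested. Without tumor #2 the members' median was -0.02, and without tumor #1 -0.05.

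**Figure D4:**
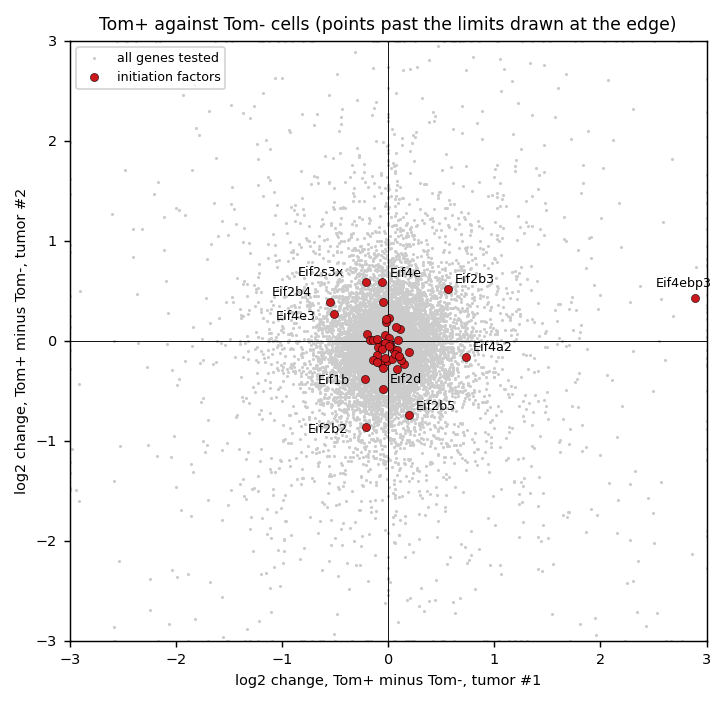
Difference in log2(TPM + 1) between Tom+ and Tom- cells in tumor #1 (horizontal) and tumor #2 (vertical) for the 48 tested initiation factors (red) and all 11339 genes tested (gray, 1 point per gene). Most initiation factors lie near 0 on both axes, Eif2b3 is above 0.5 on both, and Eif2b4 and Eif2b5 lie in opposite quadrants.

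The libraries of the 2 mice were also compared. Each mouse is 1 animal with 2 sorted fractions, so the p-values measure the spread between fractions and not between mice. The fit called 0 of 48 members higher and 0 lower in tumor #2 at an adjusted p below 0.05, beside 3.37% and 0.961% of all genes. At an unadjusted p below 0.05, 2 members were higher and 8 lower, beside 25.7% and 11.0% of all genes. Both libraries of tumor #2 lay above both of tumor #1 for 10 members (20.8%) and below them for 27 (56.3%), beside 44.8% and 23.7% of all genes, and 11 members overlapped. With the mouse as the only term, 2 members were called higher and 5 lower, beside 1664 and 567 of the 11339 genes in that fit. With trimmed-mean scaling 0 and 5 were called, beside 4.16% and 4.86%, and after rescaling to nuclear protein-coding genes 2 and 4, beside 17.4% and 4.51%.

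The median log2 difference over the members was -0.23, beside 0.20 for all genes, and 41 of 48 members lay below the median of all genes, while 33 lay below 0. Trimmed-mean scaling moved the median of all genes to -0.09 and that of the members to -0.56, quantile normalization gave -0.08 and -0.16, and rescaling to nuclear protein-coding genes 0.29 and -0.14. The members' median was thus below 0 and below the median of all genes under each of these scalings. At higher expression the gap was smaller, with -0.11 for the 35 members and -0.07 for the 1774 nuclear protein-coding genes with a mean of at least 50 TPM. The mitochondrial, erythroid, T cell, myeloid and B cell marker levels given above separate the mice in the same way, and their part in these differences was not tested.

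The members with the smallest p-values were Eif3k, with a log2 difference of -0.96 (SE 0.13, limma adjusted p = 0.0575), Eif4ebp1 with -1.11 (SE 0.17), Eif3l with -0.88 (SE 0.13), Eif6 with -0.77 (SE 0.13) and Eif4g3 with 0.95 (SE 0.17). Eif4enif1 (0.65) was the other member with an unadjusted p below 0.05 and a higher level in tumor #2, and Eif1 (-0.46), Eif3i (-0.44), Eif4b (-0.41) and Eif3c (-0.39) were the others with a lower one. In each of these 10 genes the libraries of the mice did not overlap, which by itself fixes the same sign in Tom- and in Tom+ cells taken alone. All 10 also kept their sign under trimmed-mean scaling, quantile normalization and rescaling to nuclear protein-coding genes. They were picked by p-value in these same data, so the kept signs are no separate evidence.

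**Figure D5:**
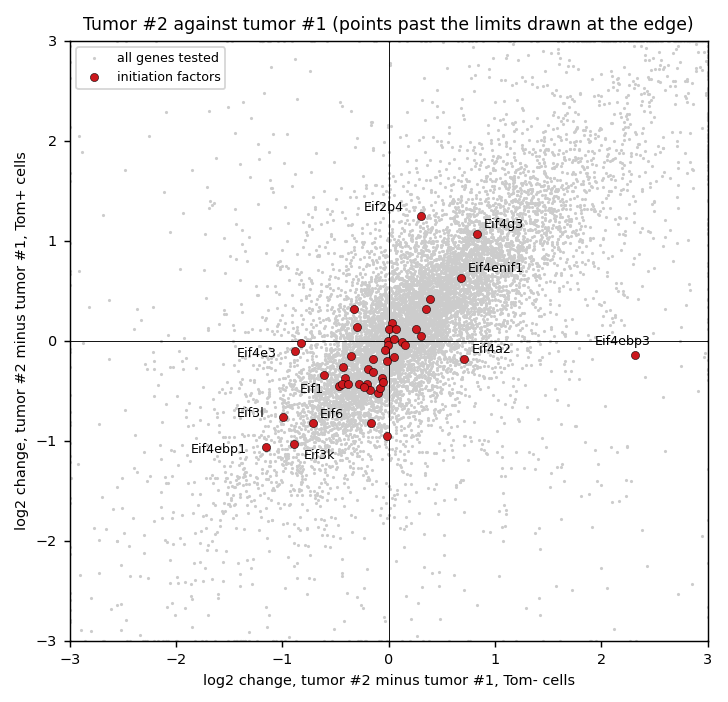
Difference in log2(TPM + 1) between tumor #2 and tumor #1 in Tom- cells (horizontal) and in Tom+ cells (vertical) for the 48 tested initiation factors (red) and all 11339 genes tested (gray). Eif4ebp1, Eif3k, Eif3l and Eif6 lie low on both axes and Eif4g3 and Eif4enif1 high on both, while Eif4ebp3 stands apart because it was listed at 0 in tumor #1 Tom- cells.

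Other genes of translation were set beside the initiation factors. Of 13 elongation and termination genes, 12 were tested and 0 were called between Tom+ and Tom- cells, with 0 at an unadjusted p below 0.05. Between the mice 1 was called lower in tumor #2, beside 0.961% of all genes. This was Eef1e1, a scaffold protein of the tRNA synthetase complex, at 31.6, 36.2, 10.7 and 11.5 TPM (-1.53, limma adjusted p = 0.0488). The call was lost with a pseudocount of 0.1, without the filter and with quantile normalization, where 0 of all genes were called lower. At an unadjusted p below 0.05, 6 of the 12 were lower, beside 11.0% of all genes. They included Eef2, the translocase of the ribosome, at 900.5, 800, 490 and 443 TPM, and Eef1a1, which brings aminoacyl-tRNA to the ribosome, at 12438, 11060, 8288 and 7483 TPM. The release factor gene Etf1 had 74.0, 75.2, 71.3 and 75.7 TPM.

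Of the 7 genes of eIF2 kinases, phosphatase subunits and the target Atf4, all tested, 0 were called in either comparison. Over all genes the calls were 0% for Tom, and 3.37% higher and 0.961% lower in tumor #2. At an unadjusted p below 0.05 for Tom, beside 2.04% of all genes higher and 2.64% lower, 1 of the 7 was higher in Tom+ cells. This was Ppp1r15a (GADD34), the inducible subunit of the eIF2α phosphatase, with 4.04 TPM in Tom- against 14.9 TPM in Tom+ cells in tumor #1, and 3.39 against 7.88 TPM in tumor #2 (log2 difference 1.33, limma unadjusted p = 0.0125, adjusted p = 0.936). Atf4, whose mRNA is translated when eIF2α is phosphorylated, had 71.0, 90.6, 62.3 and 64.8 TPM. The kinase genes Eif2ak1 (11.9, 10.9, 21.4 and 22.8 TPM) and Eif2ak2 (6.45, 6.47, 16.1 and 20.0 TPM) were the 2 of the 7 that were higher in tumor #2 at an unadjusted p below 0.05, beside 25.7% of all genes.

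Of 13 partners and regulators of eIF4F, 0 were called for Tom, with 0 at an unadjusted p below 0.05. Between the mice 1 was called higher in tumor #2, beside 3.37% of all genes. This was Pdcd4, an inhibitor of eIF4A, at 22.3, 17.7, 70.3 and 75.8 TPM (1.83, limma adjusted p = 0.0484). With a pseudocount of 0.1, without the filter and with quantile normalization, only 1 of all genes was called higher in each fit. At an unadjusted p below 0.05, 3 of the 13 were higher and 3 lower, beside 25.7% and 11.0% of all genes. The poly(A)-binding protein gene Pabpc1 was among the lower ones, at 2379, 2213, 1846 and 1487 TPM. Of 6 helicase and reinitiation genes, 5 were tested and 0 called in either comparison, with 1 higher and 1 lower in tumor #2 and 0 for Tom at an unadjusted p below 0.05, where 25.7% and 11.0% of all genes were higher and lower in tumor #2. The hypusine enzymes Dhps and Dohh were both tested, with 0 called and 0 at an unadjusted p below 0.05 in either comparison.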

How the data were processed

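Single 60-base reads of polyA RNA were obtained with CASAVA 1.8, trimmed with Cutadapt and quantified against mouse transcripts of GRCm38 with Salmon 1.9. The authors deposited TPM per gene, unfiltered, for the 4 libraries. How transcripts were summed to genes is not given in the sources used here. The authors tested counts of the paired samples with edgeR and reported differentially expressed genes between Tom+ and Tom- cells. TPM does not allow that test. Instead, log2(TPM + 1) of the 11339 genes with at least 1 TPM in at least 2 libraries was fitted with limma 3.58.1 (R 4.3.3; Tom status and mouse as terms, variance trend, 1 residual and 2.21 prior degrees of freedom), with Benjamini-Hochberg adjustment and a threshold of 0.05. This scale understates changes of low genes. Libraries of a mouse were paired because they share an animal, and their deviations from the group means correlated at r = 0.626 across genes. GENCODE M21 held 34652 of the 34866 identifiers, and the annotation release behind the TPM values is uncertain. The methods were tested on simulated data, where the changes put in for the limma fit exceeded the fitted difference of every member. Smaller changes were not simulated. Some items are not reported here. Members and gene lists were chosen with earlier results of these data known. The members described individually were the highest and lowest of each complex, all paralog groups and, per comparison, the 5 smallest p-values. Other members described (Eif1ad, Eif2b1, Eif2b5, Eif2s2, Eif3a, Eif3b, Eif3e, Eif3f and the remaining genes with an unadjusted p below 0.05) were chosen after their values were seen. Alternatives were another pseudocount (0.1 or 0.5), filter (none, or a mean of 5 TPM), scaling or variance model, no mouse term (for the comparison of the mice, no Tom term), each mouse or Tom group alone, and pseudogene copies added, the last chosen after seeing the data.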

Additional observations from a re-analysis of the deposited data

Results flagged for a closer look

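Eif2b4, the gene of the δ subunit of eIF2B, differed between Tom+ and Tom- cells by -0.55 in tumor #1 (149 against 101 TPM) and by 0.39 in tumor #2 (184 against 241 TPM), at least 1.2-fold in opposite directions. The gap between the mice was 0.94 on the log2 scale. Each value rests on 1 library of each kind, and the difference between the mice was not tested.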

How the results depend on the processing

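No call changed for Tom+ against Tom- cells under any alternative: 0 members passed an adjusted p of 0.05 in each fit. The count of members higher at an unadjusted p below 0.05 went from 1 to 0 without the replicate block, that is without the mouse as a term. The members' median went from -0.04 to 0.0034 with quantile normalization and 0.020 with rescaling to nuclear protein-coding genes. For tumor #2 against tumor #1, 2 higher and 5 lower members were called without the Tom term (1664 and 567 of the 11339 genes), 5 lower with trimmed-mean scaling (4.86%), and 2 higher and 4 lower after rescaling (17.4% and 4.51%). At an unadjusted p below 0.05, 5 members were higher without the Tom term (27.8% of all genes), 1 was higher and 27 were lower with trimmed-mean scaling (16.7% and 22.0%), and 5 were higher after rescaling (31.7%). Eif3k, Eif4ebp1, Eif3l and Eif6 were called in all 3 of these fits. Over all genes, the main fit called 382 higher and 109 lower. With a pseudocount of 0.1, without the filter and with quantile normalization, each fit called 1 higher and 0 lower over all genes. Without the filter 5 members were higher at an unadjusted p below 0.05 (15.5% of all genes), and without the variance trend 4 were lower (9.32%). The members' median was -0.56 with trimmed-mean scaling, -0.16 with quantile normalization, -0.14 after rescaling and -0.090 within Tom- cells only. The unknown depth limits what low genes can show. The summed share of the members was 1.87%, 1.88%, 1.72% and 1.84% with nuclear protein-coding genes as the denominator. The cause of each change was not tested.

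Differences of single members that took the opposite sign, none of them past the threshold, are given as log2 values. For Tom+ minus Tom-, quantile normalization gave Eif3d 0.016, Eif3h 0.010, Eif4g1 0.0086, Eif3i 0.024, Eif4g2 0.0070, Eif2b1 0.023, Eif3b 0.014, Eif4enif1 0.016 and Eif3f 0.061. Rescaling gave Eif1a 0.015, Eif3h 0.014, Eif4a3 0.019, Eif3a 0.022, Eif4g1 0.025, Eif3j1 0.0068, Eif3i 0.030, Eif4g2 0.036, Eif5b 0.028, Eif2b1 0.035, Eif3b 0.043, Eif4enif1 0.050 and Eif3f 0.050. Adding pseudogene copies gave Eif2s3x -0.040 and Eif3j1 0.22. Leaving out each mouse in turn gave ranges of Eif4e -0.057 to 0.59, Eif4a2 -0.16 to 0.73, Eif2a -0.047 to 0.38, Eif2b5 -0.74 to 0.19, Eif2s3x -0.21 to 0.59, Eif4a1 -0.023 to 0.18, Eif4e2 -0.28 to 0.080, Eif4g3 -0.024 to 0.22, Eif3d -0.14 to 0.0055, Eif3g -0.18 to 0.038, Eif1ax -0.17 to 0.0019, Eif4ebp2 -0.20 to 0.067, Eif4e3 -0.51 to 0.26, Eif2b4 -0.55 to 0.39, Eif3h -0.24 to 0.15, Eif4a3 -0.20 to 0.12, Eif3a -0.14 to 0.070, Eif4g1 -0.13 to 0.067, Eif2s2 -0.12 to 0.19, Eif3j1 -0.10 to 0.014, Eif4g2 -0.050 to 0.0084, Eif5b -0.15 to 0.10, Eif2b1 -0.087 to 0.045, Eif3b -0.030 to 0.0036, Eif4ebp1 -0.028 to 0.054, Eif4enif1 -0.032 to 0.019 and Eif3f -0.093 to 0.081. For tumor #2 minus tumor #1, trimmed-mean scaling gave Eif4h -0.0050, Eif5 -0.15, Eif5b -0.17, Eif4a2 -0.079, Eif3d -0.24, Eif3j2 -0.24, Eif2b1 -0.28, Eif4g1 -0.29, Eif3j1 -0.24 and Eif3b -0.31. Quantile normalization gave Eif4a1 0.048, Eif3j2 -0.055, Eif4g2 0.24, Eif2b1 -0.088, Eif3j1 -0.31, Eif2s1 0.042 and Eif4e 0.19. Rescaling gave Eif4g2 0.018, Eif2a 0.0026, Eif3a 0.024, Eif2b3 0.054, Eif2s1 0.079 and Eif4e 0.079. Within Tom+ cells only, the values were Eif4ebp3 -0.15, Eif4a2 -0.18, Eif2a 0.14, Eif2b1 -0.011, Eif4g1 -0.047 and Eif4e 0.32, and within Tom- cells only Eif3a 0.046. Adding pseudogene copies gave Eif3e 0.19.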

Other observations

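Processed pseudogene copies of some initiation factors were listed at sizeable TPM of their own, beside the entries of the genes. Eif1 has Gm10157 (chromosome 9, 118837613 to 118837955, minus strand) at 177, 134, 60.8 and 100 TPM and Gm16378 (chromosome 8, 122841731 to 122842072, plus strand) at 139, 174, 105 and 166 TPM in tumor #1 Tom-, tumor #1 Tom+, tumor #2 Tom- and tumor #2 Tom+ cells. They share 8.34% and 5.21% of the Eif1 windows. Added to Eif1, they gave 1179, 1176, 791 and 901 TPM, and both tumor #2 libraries still lay below tumor #1. For Eif3e, a subunit of eIF3, the copy Eif3s6-ps2 was listed at 130, 112, 182 and 189 TPM beside 230, 228, 228 and 197 TPM for the gene. With copies added, Eif3e came to 360, 339, 410 and 386 TPM, so that tumor #2 lay above tumor #1 instead of below. Eif3s6-ps2 shares only 11.9% of the Eif3e windows, so reads from the other windows can tell the gene from this copy. These sums take in the full TPM of each copy, and how much of it came from reads of the gene was not tested. TPM is corrected for transcript length, so a sum over entries of unlike length is not the TPM that pooled reads would give.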
